A study of Arabidopsis thaliana with 36 samples.

Results

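The Arabidopsis thaliana line mbf1c was compared with the wild type Col0 across a cycle of cold acclimation and return to warmth. The comparison took 24 of the 36 libraries of the study: the 12 labelled mbf1c and the 12 labelled Col0, chosen by label, with 3 libraries of each line at each of 4 conditions. Whole rosettes of both lines, grown on soil, entered the experiment at 28 days. NonA plants were harvested before any cold, from days at 20 °C and nights at 16 °C with 200 µE of light for 16 h. ACC plants then spent 3 days at 4 °C under 90 µE, so temperature and light changed together between NonA and ACC. Deacc2 and Deacc4 plants had the same 3 days of cold, followed by 2 or 4 days back in the warm long days, and were 33 and 35 days old at harvest. The labels call the libraries of a group biological replicates and number them Exp 1 to Exp 3. They name the mutant line only as mbf1c, with no allele, insertion or number of independent lines, so a difference between the lines cannot be told apart from other differences between the plants under these 2 labels.

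MBF1C (AT3G24500, multiprotein bridging factor 1C) belongs to a small family of transcriptional coactivators that bridge sequence-specific transcription factors and the general transcription machinery. In Arabidopsis it is the stress-inducible member of the family, and it is known from work on heat: it accumulates under heat stress, is needed for basal thermotolerance, and has been placed upstream of salicylic acid, trehalose and ethylene responses. Salicylic acid is made in the chloroplast after infection or stress and acts through NPR1 and its relatives on defence genes, of which the pathogenesis-related genes PR1, PR2 and PR5 are the usual readouts.

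Library depth ran from 14407060 to 55232873 gene counts in mbf1c and from 18801747 to 63178347 in Col0. Rosette identity held in both lines, with 22 photosynthesis genes summing to 31141 to 286301 counts scaled to library size, as CPM, in mbf1c and 38688 to 236665 CPM in Col0. The 5 measured genes of floral organs summed to 1.00 to 3.20 CPM in mbf1c and 0.637 to 2.31 CPM in Col0, and the 1 measured root marker stayed below 1 CPM in every library. Within each condition, libraries of both lines with the same Exp number deviated together (under the processing description). Whether an Exp number deviates alike across conditions was not tested. Exp number was kept in the model as a block beside condition, as the comparison was defined. A block for each pair of condition and Exp number was an alternative. In 2 mbf1c libraries, NonA replicate 2 and Deacc4 replicate 2, levels fell off with transcript length more than in the other libraries of their conditions (slopes of -0.80 and -0.66, where Col0 ran from -0.36 to 0.45), and results without them are given where they differ. Another, mbf1c NonA replicate 3, had a slope of -0.67 and stayed in that fit; it was left out only singly.

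MBF1C itself was low but not absent in mbf1c. At NonA it stood at 1.82, 0.377 and 1.03 CPM in mbf1c, against 4.01, 3.09 and 3.71 CPM in Col0. At ACC it stood at 0.374, 0.397 and 0.352 CPM in mbf1c, against 0.732, 0.768 and 0.682 CPM in Col0. After 2 days of deacclimation the values were 1.14, 0.484 and 0.778 CPM in mbf1c and 4.37, 2.65 and 5.56 CPM in Col0. After 4 days they were 0.850, 1.05 and 0.885 CPM in mbf1c and 2.57, 4.25 and 5.01 CPM in Col0. Within each condition every mbf1c library lay below every Col0 library, and in Col0 the 3 ACC libraries were the lowest. Over all libraries 362 counts fell on the gene in mbf1c and 1389 in Col0. MBF1C fell by 1.81 ± 0.214 on the log2 scale (SE; adjusted p = 0.000184, lower in mbf1c in 12 of 12 pairs of the same condition and Exp number). The call was lost without the 8 libraries of Exp 3 (adjusted p = 0.162), with a log2 difference of -1.65.

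The paralogs MBF1A and MBF1B, which are expressed throughout development, were far more abundant and were not called. MBF1A ran from 46.6 to 80.3 CPM in mbf1c and from 59.1 to 92.2 CPM in Col0, and MBF1B from 68.9 to 151 CPM in mbf1c and from 77.2 to 166 CPM in Col0. Their log2 differences were -0.15 ± 0.0962 and 0.03 ± 0.132 (SE; adjusted p = 0.568 and 0.941).

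The counts of MBF1C depended on how strands were read. Its exons share 114 bases on chromosome 3 (TAIR10.1, 8919570 to 8919683) with the 3′ end of ALDH2C4, an aldehyde dehydrogenase gene on the other strand, and 176 bases (8919082 to 8919257) with the antisense gene AT3G04685. In the deposited column for the first strand MBF1C had 2642 counts in mbf1c and 4235 in Col0, with a log2 difference of -0.45 ± 0.154 that was not called (adjusted p = 0.374). In the column for the second strand it had 333 counts in mbf1c and 875 in Col0, with a log2 difference of -1.08 ± 0.168 (adjusted p = 0.00633). The unstranded column, with 362 counts in mbf1c and 1389 in Col0, leaves out reads that lie on exons of both genes. Each strand column gives such a read to a single gene. The MBF1C counts of the strand columns therefore also hold reads on bases shared with other genes. How many of those reads came from MBF1C was not tested. None of the 10 tested neighbours of MBF1C, 5 on each side, was called over all conditions. The nearest, the mismatch repair gene MSH7 upstream and ALDH2C4 downstream, had log2 differences of 0.61 ± 0.237 and -0.21 ± 0.155 (SE; adjusted p = 0.421 and 0.618). Within Exp 1 alone, MSH7, which shares 22 exonic bases with MBF1C, rose by 0.94 ± 0.161 and AT3G24460 by 0.89 ± 0.209 (log2, SE; adjusted p = 0.00788 and 0.0423, where 0.291% of genes were called higher).

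**Figure D1:**
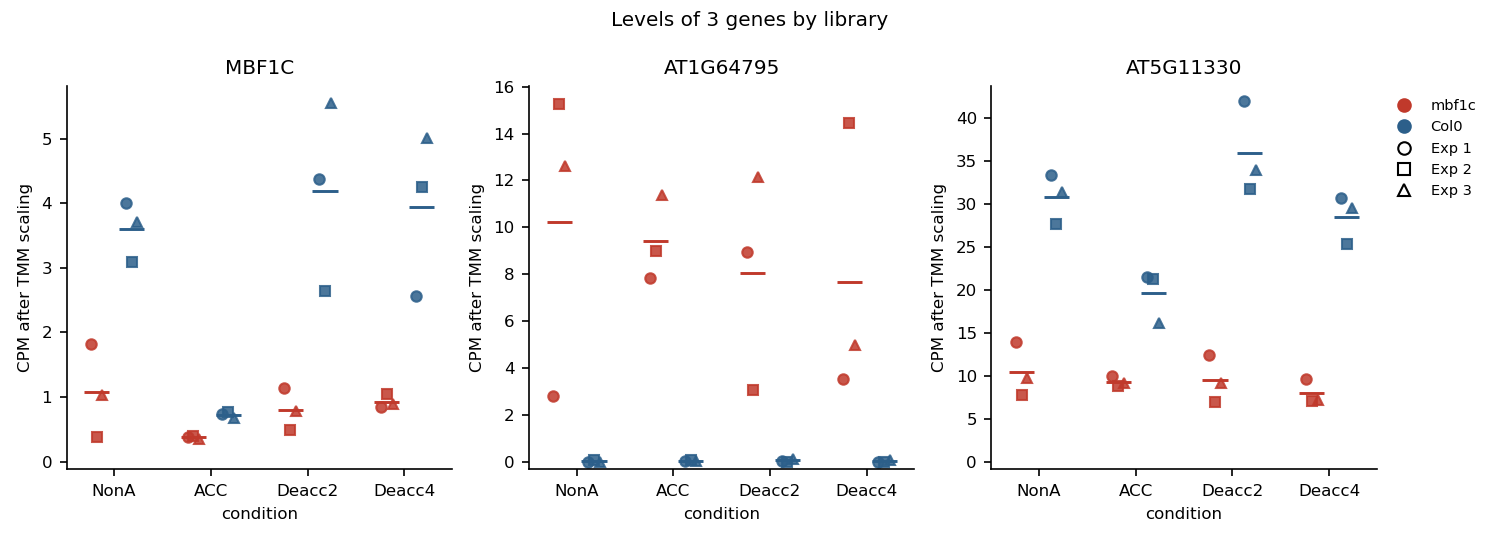
CPM after TMM scaling of MBF1C, AT1G64795 and AT5G11330 in each library (y axes, linear), by condition (x axes), with mbf1c in red left of Col0 in blue, marker shapes for Exp 1 to Exp 3 and bars for the mean of 3 libraries. All mbf1c points of AT1G64795 lie between 2.80 and 15.3 CPM above Col0 points at 0 to 0.126 CPM, and the order is turned round for AT5G11330.

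Beyond MBF1C few genes were called between the lines, and the number called does not tell how many genes differ. Of 20450 genes tested, 13 (0.0636%) passed an adjusted p of 0.05, 4 higher (0.0196%) and 9 lower (0.0440%) in mbf1c. At an unadjusted p under 0.05, 1061 genes (5.19%) were higher and 1071 (5.24%) were lower, which comes to 2132 (10.4%) in either direction. DESeq2 called 86 genes (0.421%), 24 higher and 62 lower, and a block for each pair of condition and Exp number called 95 (0.465%), 28 higher and 67 lower, and both sets held all 13. The count moved with the libraries used: it was 6 without mbf1c_NonA replicate 2 and mbf1c_Deacc4 replicate 2, and 3, 108 and 2 without Exp 1, Exp 2 and Exp 3. Left out singly, mbf1c_Deacc4 replicate 3 gave 58 calls and Col0_ACC replicate 2 gave 22. It was 8 without mbf1c_Deacc4 replicate 1, mbf1c_ACC replicate 3 or Col0_NonA replicate 3, and 7 without mbf1c_Deacc2 replicate 1 or 3, mbf1c_NonA replicate 3, Col0_Deacc2 replicate 1, Col0_NonA replicate 1 or 2, or Col0_Deacc4 replicate 3. Only AT1G64795 and AT5G11330 had all 12 libraries of 1 line outside the range of the other line (1 gene, 0.00489% of those tested, in each direction). All 12 pairs of the same condition and Exp number were lower in mbf1c for 63 genes (0.308%) and higher for 54 (0.264%).

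**Figure D2:**
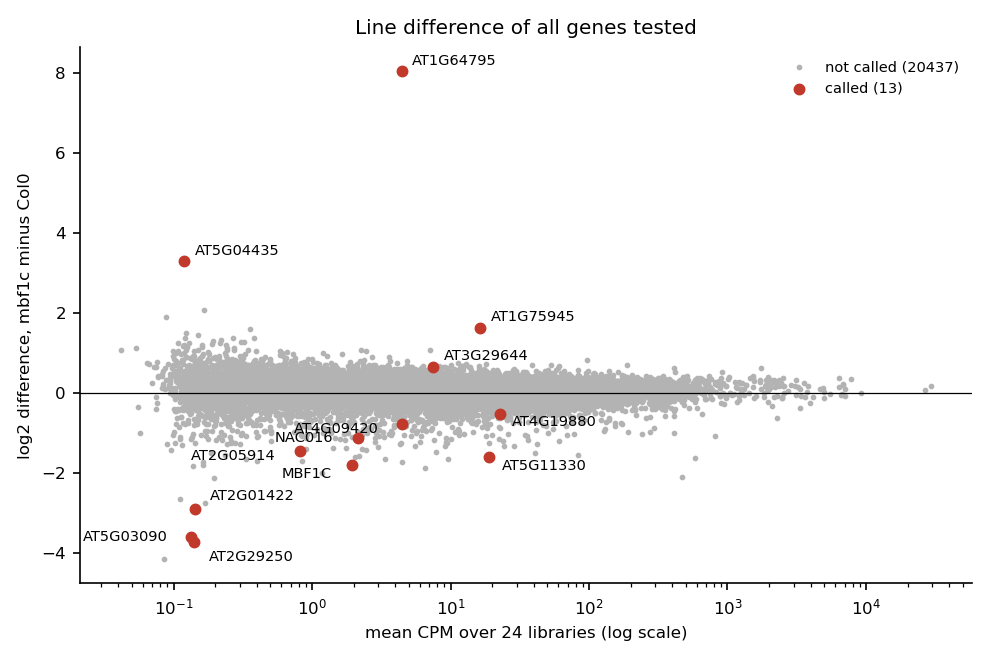
Log2 difference of mbf1c minus Col0 (y axis) against the mean CPM over the 24 libraries (x axis, log scale) for all 20450 genes tested, with the 13 called genes in red. AT1G64795 stands alone at the top at 8.04, and 5 of the called genes lie below 1 CPM.

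The largest difference was at AT1G64795, which codes for an uncharacterized protein. Its annotated gene is 270 bases long, on the plus strand of chromosome 1 (TAIR10.1, chr1:24082579-24082848), inside the gene ILA (AT1G64790, ILITYHIA), which runs on the other strand and codes for a HEAT-repeat protein involved in immunity and translation control. The gene is printed because reads at this place told the lines apart in every library. The capitals mark the 142 bases that are also exon of ILA, which come to 70.6% of the exonic bases of AT1G64795.
AT1G64795: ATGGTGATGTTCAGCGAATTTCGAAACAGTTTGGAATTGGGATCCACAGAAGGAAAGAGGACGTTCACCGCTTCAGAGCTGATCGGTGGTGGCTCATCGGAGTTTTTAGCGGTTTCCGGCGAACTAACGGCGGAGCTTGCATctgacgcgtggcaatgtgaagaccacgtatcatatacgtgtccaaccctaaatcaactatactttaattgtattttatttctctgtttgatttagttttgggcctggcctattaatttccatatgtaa

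AT1G64795 had 3489 counts in mbf1c and 14 in Col0. At NonA it stood at 2.80, 15.3 and 12.6 CPM in mbf1c, against 0, 0.0572 and 0 CPM in Col0. At ACC it stood at 7.83, 8.99 and 11.4 CPM in mbf1c, against 0.0282, 0.0668 and 0.0151 CPM in Col0. The Deacc2 values were 8.95, 3.06 and 12.2 CPM in mbf1c and 0.0223, 0 and 0.126 CPM in Col0, and the Deacc4 values 3.54, 14.5 and 4.99 CPM in mbf1c and 0, 0 and 0.0651 CPM in Col0. The lowest mbf1c library therefore stood far above the highest Col0 library, and 5 Col0 libraries had no count. AT1G64795 rose by 8.04 ± 0.450 on the log2 scale (SE; adjusted p = 4.76e-10, higher in 12 of 12 pairs); this estimate leans on the prior count because Col0 is near 0, and the ratio of mean CPM was 279. It was called within each of the 4 conditions and within each of the 3 Exp numbers.

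The strand columns showed further reads at the same place. A read on bases shared by AT1G64795 and ILA is ambiguous in the unstranded column but counts once for each gene in the strand columns, so the excess of the 2 strand columns of ILA over its unstranded count gives the number of such reads. That excess was 109 to 1212 reads per library in mbf1c (7105 in all) and 0 to 6 in Col0 (32 in all). The excess at AT1G64795 gave 7097 and 24 reads. The reads fell on both strand columns in like numbers, 4971 and 5615 for AT1G64795 in mbf1c, and the strand they came from cannot be told apart. ILA as counted outside the shared bases was not called: it ran from 8.87 to 323 CPM in mbf1c and from 23.3 to 277 CPM in Col0, with a log2 difference of -0.12 ± 0.319 (SE; adjusted p = 0.897). None of the 10 tested neighbours of AT1G64795 was called.

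AT5G11330 codes for a FAD/NAD(P)-binding oxidoreductase family protein (chromosome 5, TAIR10.1, 3617138 to 3618913, minus strand; its exons share no bases with another gene). It stood at 13.9, 7.73 and 9.78 CPM in mbf1c against 33.4, 27.7 and 31.4 CPM in Col0 at NonA, and at 9.97, 8.81 and 9.13 CPM in mbf1c against 21.5, 21.3 and 16.2 CPM in Col0 at ACC. At Deacc2 it stood at 12.4, 6.94 and 9.18 CPM in mbf1c against 42.03, 31.7 and 34.01 CPM in Col0, and at Deacc4 at 9.68, 7.01 and 7.19 CPM in mbf1c against 30.7, 25.4 and 29.5 CPM in Col0. The highest mbf1c library, at 13.9 CPM, lay below the lowest Col0 library, at 16.2 CPM. The gene fell by 1.61 ± 0.111 on the log2 scale (SE; adjusted p = 1.51e-08, lower in 12 of 12 pairs). Its mean level was 9.31 ± 2.122 CPM in mbf1c and 28.7 ± 6.89 CPM in Col0 (SD, n = 12). The difference was smallest at ACC, where Col0 levels were lowest (log2 -1.08 ± 0.178, SE), but a test of dependence on condition did not pass (adjusted p = 1). None of its 10 tested neighbours was called.

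The other 10 called genes differed less or rested on few counts. AT1G75945 (uncharacterized protein) and AT3G29644 (a long noncoding RNA) were named by the rule for large differences of the same sign in all 12 pairs. AT1G75945 rose by 1.63 ± 0.288 (log2, SE; adjusted p = 0.0249), with a median of 19.2 CPM and a range of 5.48 to 66.9 CPM in mbf1c, against a median of 6.63 CPM and a range of 3.12 to 12.8 CPM in Col0. AT3G29644 rose by 0.65 ± 0.116 (adjusted p = 0.0249), with 5.68 to 15.4 CPM in mbf1c and 4.03 to 7.87 CPM in Col0, and 31.3% of its exonic bases are shared with a gene on the other strand. The ranges of both genes overlapped between the lines. Without the 2 mbf1c libraries of low length slope their log2 differences were 1.21 and 0.53 and neither was called (adjusted p = 0.0611).

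The remaining 8 are named after their values were seen. NAC016, a NAC transcription factor that promotes leaf senescence, fell by 1.13 ± 0.214 (log2, SE; adjusted p = 0.0473), with 0.151 to 4.41 CPM in mbf1c and 0.757 to 5.92 CPM in Col0. AT4G09420, which codes for a TIR-NBS disease resistance protein, fell by 0.79 ± 0.143 (adjusted p = 0.0281), with 1.78 to 5.81 CPM in mbf1c and 2.11 to 10.2 CPM in Col0. AT4G19880, of the glutathione S-transferase family, fell by 0.52 ± 0.0985 (adjusted p = 0.0473), with 9.45 to 29.3 CPM in mbf1c and 12.4 to 47.8 CPM in Col0. Without the same 2 libraries none of these 3 was called (adjusted p = 0.0935, 0.0611 and 0.0621). NAC016 and AT4G09420 were lower in 12 of 12 pairs and AT4G19880 in 11. The long noncoding RNA AT2G05914 had 187 counts in mbf1c and 584 in Col0, and fell by 1.47 ± 0.237 (adjusted p = 0.0103). The last 4 were near the limit of counting. AT2G01422, a noncoding RNA, had 11 counts in mbf1c and 113 in Col0. AT5G03090 (Mto 1 responding down protein) had 7 in mbf1c and 109 in Col0, and AT2G29250 (a lectin protein kinase family member) had 6 in mbf1c and 140 in Col0. The Col0 counts of AT2G29250 were 1, 0 and 0 at NonA and 0 in each ACC library. They were 27, 23 and 44 at Deacc2 and 3, 11 and 31 at Deacc4. Its difference therefore lay in the deacclimation libraries, and before or in the cold it was hardly counted in either line. AT5G04435, a long noncoding RNA, was the other way, with 80 counts in mbf1c and 8 in Col0.

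Some of these genes stood apart from Col0 in the third line of the study, jub1, as well. All 36 libraries were fitted, with different models for different comparisons. Values of mbf1c against Col0 came from a model of line and condition groups with Exp number (the group model). Comparisons with jub1 came from a model of condition, Exp number and line. AT1G75945 was 1.67 ± 0.261 higher in mbf1c than in Col0 and 1.43 ± 0.245 higher in jub1 than in Col0 (log2, SE). AT3G29644 was 0.68 ± 0.119 and 0.67 ± 0.111 higher. NAC016 differed by -1.099 ± 0.238 in mbf1c (not called in the group model, adjusted p = 0.150) and by -1.07 ± 0.224 in jub1. Of the other called genes, AT2G05914 differed by -1.48 ± 0.312 in mbf1c (not called in the group model, adjusted p = 0.123) and by -2.59 ± 0.317 in jub1 (adjusted p = 4.05e-05). AT5G03090 differed by -3.83 ± 0.666 in mbf1c and by -2.47 ± 0.486 in jub1 (adjusted p = 0.0164 and 0.0180). The comparisons of mbf1c and jub1 with Col0 share the Col0 libraries. AT4G09420 and AT4G19880 were not called in mbf1c against Col0 in the group model either (adjusted p = 0.151 and 0.215). AT2G29250 gave no usable estimate there (SE of 7982). Set against jub1 directly, mbf1c differed by 0.24 ± 0.240 at AT1G75945, 0.00 ± 0.111 at AT3G29644 and -0.02 ± 0.229 at NAC016, none of them called (0.0629% of genes were, in that comparison). AT1G64795 and AT5G11330 differed from jub1 too: AT1G64795 differed by 5.79 ± 0.374 and AT5G11330 differed by -1.47 ± 0.104 in mbf1c from jub1 (adjusted p = 2.02e-12 and 1.36e-11).

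Condition by condition the lines differed at 2 genes before cold (NonA, 0.00978% of those tested), 1 after it (ACC, 0.00489%), and 2 and 3 genes after 2 and 4 days of deacclimation (0.00978% and 0.0147%). AT1G64795 was called at each, and AT5G11330 at NonA, Deacc2 and Deacc4. The third gene at Deacc4 was AT2G34190, a xanthine/uracil permease family gene named here after its values were seen. It stood at 5.48, 5.15 and 4.45 CPM in mbf1c, against 2.096, 1.63 and 2.37 CPM in Col0, and rose by 1.32 ± 0.194 at Deacc4 (log2, SE; adjusted p = 0.0149). At NonA its ranges overlapped, with 9.35 to 11.7 CPM in mbf1c and 8.07 to 11.5 CPM in Col0. MBF1C was not called within any single condition (adjusted p = 0.995, 1, 0.0645 and 0.163 from NonA to Deacc4). The test of whether the line difference depends on condition called no gene (edgeR; 156 genes, 0.763%, at an unadjusted p under 0.05), and DESeq2 called 1 (0.00489%). Each single condition compares 3 libraries with 3, and the number called does not tell how many genes differ.

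Among the gene lists the median furthest from 0 was that of salicylic acid defence, and it was carried by some Exp numbers and not others. The list was chosen with earlier results of these data known. Its members belong to the same response, so they are not 25 independent observations. All 25 members of a list of salicylate genes were tested and all 25 had lower estimates in mbf1c, with a median log2 difference of -0.57, where 50.0% of all genes tested were lower and the median of all genes was 0.00. At an unadjusted p under 0.05, 19 of the 25 were lower, against 5.24% of all genes tested. None passed the adjusted threshold in edgeR (the smallest adjusted p was 0.138, at SAG101), and DESeq2 called 4 of them lower (0.303% of genes), PR2, SAG101, WRKY46 and NPR3. Without the 8 libraries of Exp 1 the number at an unadjusted p under 0.05 was 5, without Exp number as a term it was 4, and it was 15 and 23 without Exp 3 and Exp 2.

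PR1 shows the split. In Exp 1 it stood at 3.88, 8.999, 34.4 and 5.72 CPM in mbf1c from NonA to Deacc4, against 349, 262, 1018 and 120.2 CPM in Col0. In Exp 2 it stood at 237, 390.3, 949 and 1132 CPM in mbf1c, against 489, 292, 791 and 809 CPM in Col0. In Exp 3 it stood at 69.4, 59.1, 634 and 367 CPM in mbf1c, against 273, 369.8, 1954 and 677 CPM in Col0. All 4 pairs were lower in mbf1c in Exp 1 and in Exp 3, and 1 of 4 in Exp 2. PR2, a beta-1,3-glucanase, had medians over the 4 conditions of 38.6 CPM in mbf1c and 358 CPM in Col0 in Exp 1, 920.2 CPM in mbf1c and 897 CPM in Col0 in Exp 2, and 262 CPM in mbf1c and 762 CPM in Col0 in Exp 3.

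**Figure D3:**
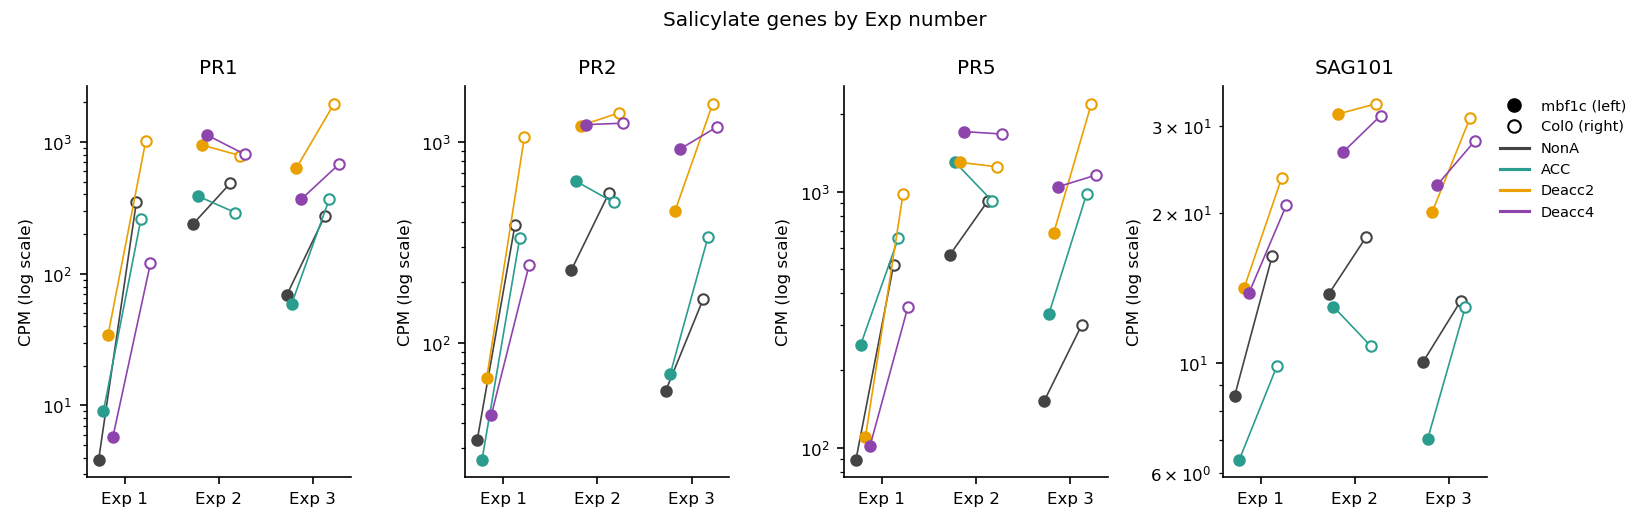
CPM of PR1, PR2, PR5 and SAG101 (y axes, log scale) in each library, grouped by Exp number (x axes). Filled points on the left are mbf1c, open points on the right are Col0, and lines join libraries of the same condition. The lines of PR1 rise steeply toward Col0 in Exp 1, differ in direction in Exp 2 and rise less steeply in Exp 3. Those of SAG101 span less, with pair differences of -0.94 to 0.26 on the log2 scale.

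Within Exp 1 alone, 689 genes were called (3.52% of 19597 tested), 57 higher (0.291%) and 632 lower (3.22%) in mbf1c. They held 21 of the 25 salicylate genes, all lower, and 24 of the 25 were lower (49.3% of all genes), and the median of the list was -1.39. PR1 differed by -5.16 ± 0.309 and PR2 by -3.43 ± 0.226 (log2, SE; adjusted p = 2.22e-05 and 3.85e-05). Within Exp 2 only AT1G64795 was called (0.00540% of genes), 11 of the 25 were lower (51.4% of genes), none at an unadjusted p under 0.05 (7.97% of genes were lower at that level), and the list median was 0.02. Within Exp 3, again only AT1G64795 was called (0.00520%), all 25 were lower (52.2% of genes), 18 of them at an unadjusted p under 0.05 (4.23% of genes), and the list median was -0.62. A test of whether the line difference depends on Exp number called no gene in edgeR, with 668 genes (3.27%) at an unadjusted p under 0.05. PR1 had an adjusted p of 0.0633 in that test.

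The estimates furthest below 0 were those of PR1, ALD1, PR2 and FMO1. Among the upstream regulators, SAG101, a lipase-like partner of EDS1, differed by -0.46 ± 0.102, EDS1 by -0.48 ± 0.240 and PAD4, the third lipase-like protein of that group, by -0.49 ± 0.181 (log2, SE, all conditions). ICS1, which makes the precursor of most stress-induced salicylate, differed by -0.64 ± 0.263, and its exporter EDS5 by -0.57 ± 0.245. The receptors NPR1, NPR3 and NPR4 differed by -0.22 ± 0.0902, -0.41 ± 0.107 and -0.15 ± 0.0960. WRKY46 and WRKY70, transcription factors of this response, differed by -0.95 ± 0.247 and -0.53 ± 0.164. ALD1 and FMO1, which make pipecolic acid and its active hydroxylated form for systemic resistance, differed by -1.66 ± 0.551 and -1.28 ± 0.551, and the outputs PR1, PR2 and PR5 by -2.121 ± 0.648, -1.64 ± 0.450 and -1.09 ± 0.322. The smallest adjusted p of these 15 genes was the 0.138 of SAG101. JUB1, which lies outside the list and is the gene of the third line, followed the same split, with log2 differences of -1.38 ± 0.264 in Exp 1, 0.14 ± 0.338 in Exp 2 and -0.83 ± 0.250 in Exp 3 (SE), and was called in Exp 1 (adjusted p = 0.0143).

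**Figure D4:**
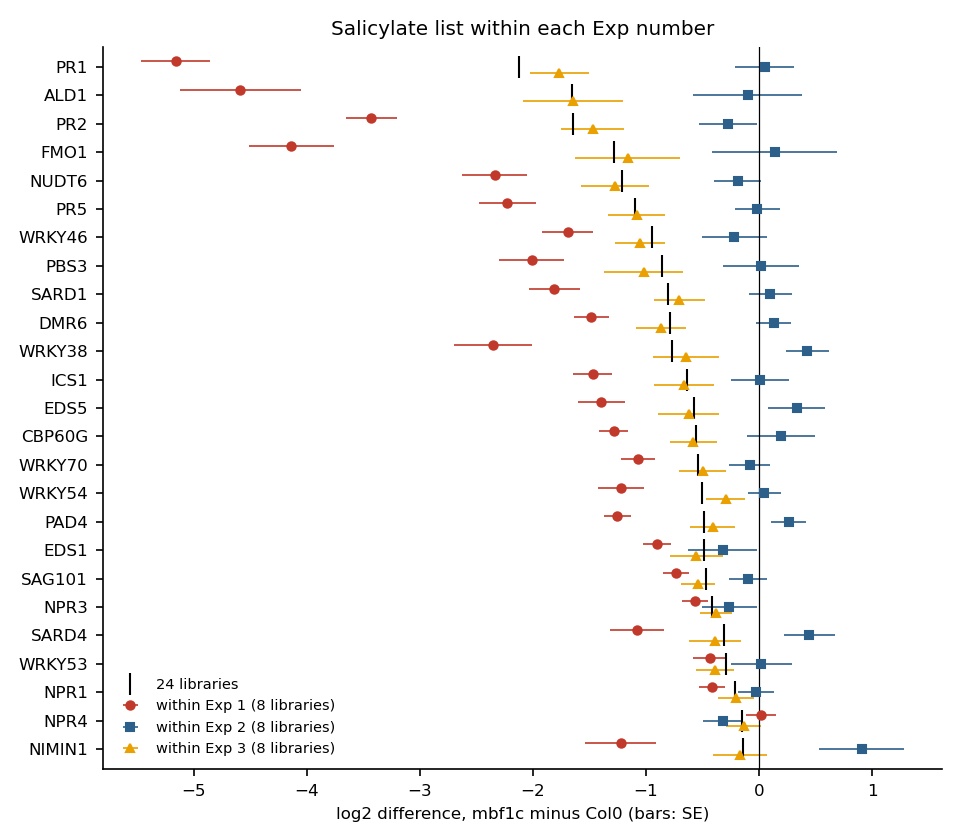
Log2 difference of mbf1c minus Col0 (x axis, bars are SE) for the 25 salicylate genes (y axis), fitted within Exp 1 (red), Exp 2 (blue) and Exp 3 (yellow) from 8 libraries each, with black ticks for the fit to 24 libraries. In Exp 1 24 of 25 points are below 0, in Exp 2 they straddle 0 and in Exp 3 all 25 are below 0.

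Estimates for the list were also made at each condition, and the test of dependence on condition called none of its members. Its median log2 difference was -0.98 in NonA plants with 25 of 25 lower (53.5% of all genes), -0.49 in ACC plants with 22 lower (50.1%), -0.87 in Deacc2 plants with 25 lower (47.5%) and -0.19 in Deacc4 plants with 19 lower (51.4%). At an unadjusted p under 0.05, 14, 0, 11 and 1 members were lower, where 1.69%, 0.406%, 0.866% and 2.69% of all genes were. The summed level of the 25 genes ran from 363 to 5375 CPM in mbf1c and from 1241 to 7588 CPM in Col0. The 4 mbf1c libraries of Exp 1 held 363, 493, 548 and 467 CPM from NonA to Deacc4 and were the lowest 4 of all 24. Set against jub1, mbf1c had a list median of -0.14, with 19 of 25 lower (40.5% of all genes) and 1 lower at an unadjusted p under 0.05 (1.80%).

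TTGAC, the core of the W-box that WRKY factors bind, was searched on both strands of the 250 bases before each gene. It was found for 13 of the 25 salicylate genes (52.0%) and for 44.97% of the 20323 tested genes with such a flank. The palindromic heat shock element GAANNTTC was found for 6 of the 25 (24.0%), SARD1, CBP60G, ALD1, FMO1, PR5 and NIMIN1, against 9.48% of the tested genes. TGACG, the core of the TGA factor element, was found for 4 of the 25 (16.0%) and 19.3% of the tested genes. CTAGA, a motif reported for binding by MBF1C, was found for 8 of the 25 (32%) and 23.2% of the tested genes. A match is a description of these letters and not a site.

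The responses for which MBF1C is best known in heat gave no call over all conditions in edgeR. At an unadjusted p under 0.05, 5.24% of all genes tested were lower, and 50.0% had estimates below 0. Of 31 heat shock genes 23 could be tested: none was called and none passed an unadjusted p of 0.05, 13 were lower, and the median log2 difference was -0.02. HSFA2, a heat shock factor for acquired thermotolerance, stood at 0.251 to 2.55 CPM in mbf1c and 0.182 to 1.102 CPM in Col0, a log2 difference of 0.28 ± 0.290 (SE). DREB2A, a drought and heat factor, stood at 0.571 to 5.21 CPM in mbf1c and 1.06 to 4.39 CPM in Col0, a log2 difference of -0.02 ± 0.137. Among 18 tested genes of trehalose metabolism 14 were lower, with a median of -0.05, and only TPS9, a class II trehalose phosphate synthase, had an unadjusted p under 0.05 (log2 -0.46 ± 0.214), a share near that of all genes. Of 27 ethylene genes 21 were lower, with a median of -0.11, and 7 had an unadjusted p under 0.05, all lower. They were ACS7 and ACS11 of ethylene synthesis, the receptor ERS1, the kinase CTR1, the master factors EIN3 and EIL1, and ERF2. EIN3 had log2 differences of -0.41, -0.54 and -0.36 within Exp 1, Exp 2 and Exp 3 and stood at 43.7 to 181 CPM in mbf1c, against 68.0 to 206 CPM in Col0 (adjusted p = 0.432).

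No member of the other lists was called over all conditions in the edgeR model of condition, Exp number and line. The share of all genes at an unadjusted p under 0.05 was 5.19% higher and 5.24% lower, so 1 gene in a list of about 20 is at that share. The cold regulon had a median of 0.12, with 18 of 25 genes higher and none at an unadjusted p under 0.05. Its medians were -0.39, 0.42 and 0.29 within Exp 1, Exp 2 and Exp 3. At an unadjusted p under 0.05, 0 of its genes were higher and 12 lower within Exp 1 (6.77% and 10.7% of all genes). Within Exp 2, 13 were higher and 1 lower (9.18% and 7.97%), and within Exp 3, 6 were higher and 1 lower (2.96% and 4.23%). Flavonoid genes had a median of 0.24, with 19 of 23 higher. At an unadjusted p under 0.05, 1 of them was higher (CHI, chalcone isomerase) and 1 lower (TTG1). Of 22 photosynthesis genes 4 were higher at an unadjusted p under 0.05, RBCS1B, RBCS2B and RBCS3B of the small subunit of Rubisco and PSBS of photoprotection, with a list median of 0.03. Of 14 senescence and starvation genes 11 were lower, with a median of -0.31 and 3 at an unadjusted p under 0.05. Those 3 were SAG13, NYE1 of chlorophyll breakdown and ASN1. Of 21 hypoxia genes 1, HRE1, was lower at that level, with a list median of -0.09. Of 11 flowering time genes 9 were higher. FLC, a repressor of flowering, was lower in 11 of 12 pairs (log2 -0.75 ± 0.198, SE; edgeR adjusted p = 0.290, DESeq2 adjusted p = 0.0382). FT, the flowering signal, was higher in 10 (0.57 ± 0.228; adjusted p = 0.428). Over all genes tested, 6.98% were lower in 10 or more of the 12 pairs. In the jasmonate list VSP2, a vegetative storage protein gene, stood 0.68 ± 0.326 above Col0 on the log2 scale (SE), with an adjusted p of 0.479 in edgeR, and was called with a block for each pair of condition and Exp number (adjusted p = 0.0205). Medians of the jasmonate, abscisic acid, clock, ribosome biogenesis, oxidative and mitochondrial, cell wall growth, phosphate starvation and iron lists lay between -0.14 and 0.06. At an unadjusted p under 0.05, 3 of 12 cell wall growth genes and 3 of 22 jasmonate genes were higher. Of 19 oxidative and mitochondrial genes 2 were higher and 2 lower. The abscisic acid and iron lists had 1 higher each, and the clock, ribosome biogenesis and phosphate starvation lists had none.

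**Figure D5:**
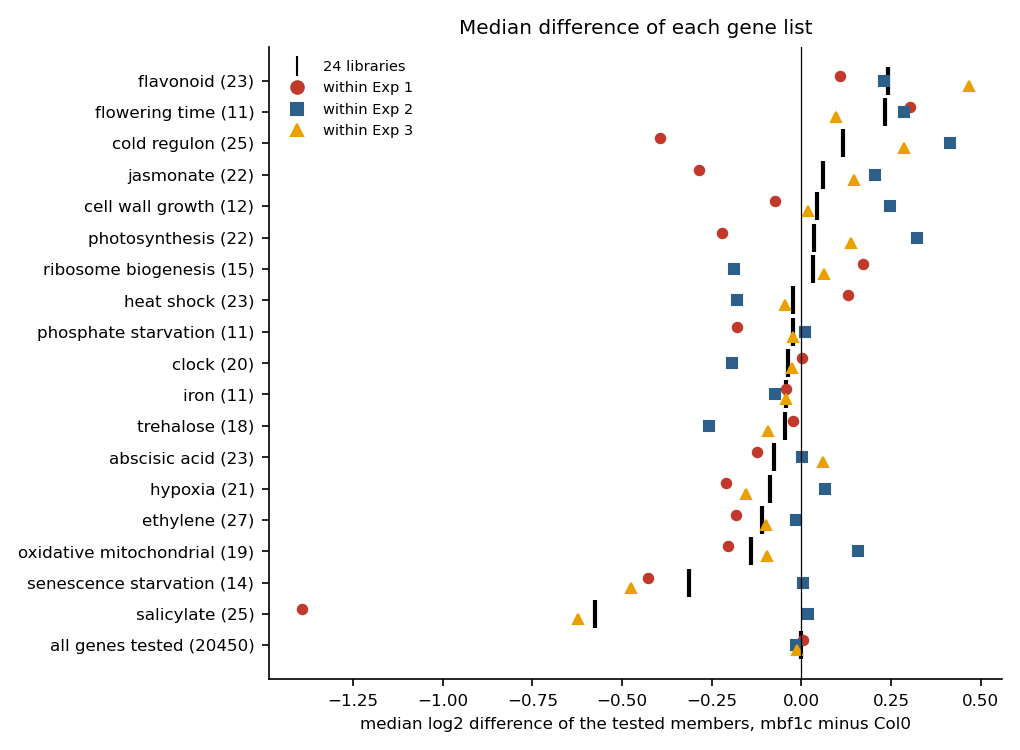
Median log2 difference of mbf1c minus Col0 (x axis) over the tested members of each list with 8 or more (number tested in brackets, y axis), from 24 libraries (black ticks) and within Exp 1, Exp 2 and Exp 3 (coloured markers). The salicylate list lies at -1.39, 0.02 and -0.62 within the 3 Exp numbers, and all genes lie near 0.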

How the data were processed

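Whole-rosette RNA was extracted with Trizol, treated with DNase and sequenced on a BGISEQ-500, per the labels' protocols. The deposited values were read counts per gene in an unstranded column and 2 strand columns. STAR 2.6.0c, TAIR10 and DESeq2 are named per the submitters' processing notes, which give no annotation release. The unstranded column was used, without its 4 summary lines, since the strand columns held like numbers of reads. Gene names and coordinates came from RefSeq TAIR10.1, which named 32548 of 34262 genes.

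Genes were filtered with filterByExpr, scaled by TMM and tested with edgeR 4.0.16 (quasi-likelihood) in R 4.3.3, in a model of condition, Exp number and line, with Benjamini-Hochberg adjustment over 20450 genes at 0.05. CPM are TMM-scaled. Lines within conditions, dependence on condition and single Exp numbers were fitted likewise, and DESeq2 1.42.0 was an alternative. Libraries of the same condition and Exp number deviated together (correlation 0.283 to 0.761 in 12 pairs, against -0.646 to 0.165 in others), so numbers were taken to pair libraries. Deviations were taken from the mean of each group of 3 libraries, so positive values in matched pairs tend to push the others below 0. No 2 libraries of the same line and condition agreed within sampling noise. Totals of 14407060 to 63178347 counts set the precision, and reads without molecular identifiers are not independent molecules. The labels call the replicates biological but do not say whether they came from separate sowings. The tests therefore speak only for the spread among these libraries. How much of that spread is technical was not tested.

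The comparison and gene lists were chosen with earlier results of these data known. Genes named by rule were the MBF1 family and JUB1, up to 15 called genes a direction with the largest log2 differences, a mean of 5 CPM or more and the same sign in all 12 pairs, up to 4 called members a list, up to 3 called genes a direction within each condition at the same CPM minimum, up to 5 genes of the condition test, and 10 tested neighbours of MBF1C. The fit was tested on simulated data in which an Exp number shifted a gene alike in all conditions. Data without that property were not simulated. BLAST 2.17.0 found no near-identical copy of a called or salicylate gene. The sequence before 1 salicylate gene is not reported here.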

Additional observations from a re-analysis of the deposited data

Results flagged for a closer look

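Reads shared by AT1G64795 and ILA lie outside the unstranded counts, which leave out reads on exons of both genes, and entered only the alternative fits to the strand columns. Taken from the strand columns, they came to 7105 reads over the 12 mbf1c libraries and 32 over the 12 Col0 libraries, so a signal stood above the level of the wild type in reads outside the main measurement.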

How the results depend on the processing

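None of the 13 called genes changed sign over all conditions in the alternatives tried. List medians were less stable. The salicylate median of -0.57 was 0.02 within Exp 2. Within Exp 1 the cold regulon median of 0.12 became -0.39 and the photosynthesis median of 0.03 became -0.22. The 13 genes called over all conditions became 95 with a replicate block within condition, 20 with a length correction in the blocked fit, 86 in DESeq2, 689, 1 and 1 within Exp 1, Exp 2 and Exp 3, and 6 without the 2 libraries of low length slope, an alternative added after the data were seen. Leaving out an Exp number gave 2 to 108 calls and leaving out single libraries 7 to 58. Without the replicate block 9 genes were called, and MBF1C stood at -1.79. MBF1C was not called in the first strand column (-0.45), within Exp 2 (-2.05) or Exp 3 (-2.12), or without Exp 3, with -2.05 to -1.65 when an Exp number and -1.93 to -1.73 when a single library was left out. At NonA the 2 calls became 1 in a fit to its 6 libraries, 0 to 1 without an Exp number and 1 to 2 without single libraries. At ACC the 1 call became 2 with RLE factors, the second strand column, the length correction, all 36 libraries or without the 2 libraries of low slope, 4 in the first strand column, 3 in DESeq2, and 0 to 1 without an Exp number or single libraries. At Deacc2 the 2 calls became 0 to 2 without an Exp number and 2 to 3 without single libraries. At Deacc4 the 3 calls became 5 in the first strand column, 53 in DESeq2, 0 in a fit to its 6 libraries, 0 to 2 without an Exp number and 2 to 4 without single libraries. Dependence on condition gave 1 call in DESeq2. The 19 salicylate genes became 4 without the replicate block, 0 within Exp 2, 5 to 23 without an Exp number and 13 to 21 without single libraries. Causes were not tested. Genes with few counts, MBF1C in mbf1c among them, were limited by depth.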
